A study of Mus musculus with 8 samples.

Results

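The transcripts of 10 regulators of hair follicle lineages, Gata3, Cux1, Ovol1, Runx1, Trps1, Grhl1, Grhl3, Sox21, Vdr and Hr, were measured in keratinocytes of the hair matrix, the proliferative epithelium at the base of the follicle. They were chosen by name, and all 10 were present among 29647 genes of the untreated table and 29246 genes of the 5-aza table. The sorted cells came from mice at postnatal day 4.5 in 4 groups of 2 libraries. The groups were Tet2/Tet3 DKO, Krt14-Cre mice and WT mice that had received 50 µg of 5-aza under the skin at postnatal day 2.5, and Tet2/Tet3 DKO, Krt14-Cre mice and WT mice left untreated. DKO stands for double knockout of Tet2 and Tet3, which encode enzymes that oxidise 5-methylcytosine in DNA, and 5-aza is an inhibitor of DNA methyltransferases. Krt14-Cre acts in basal keratinocytes and their descendants, so other cell types caught by the sort keep both genes. The labels give the WT mice no Cre or floxed allele, and separate animals or cultures are not stated for the replicates, so p-values measure only the spread between these libraries.

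As background, the hair bulb gives rise to the hair shaft and to the inner root sheath, the sleeve that guides the growing shaft, and transcription factors select between these fates. In mice, loss of the zinc finger factor Gata3 disturbs the inner root sheath, and mutants of the homeodomain factor Cux1 have abnormal sheaths and hair. Runx1, a Runt-domain factor, affects hair cycling and shaft structure, and Trps1, an atypical GATA-type repressor, is the gene of trichorhinophalangeal syndrome. Ovol1 is a zinc finger repressor needed for normal shafts. Grhl1 and Grhl3 belong to the grainyhead-like family of epithelial factors. Sox21 acts in the cuticle of the hair shaft. Vdr, the vitamin D receptor, and Hr, the hairless corepressor that binds it, are both required for hair to regrow after the first cycle.

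Library totals were 19528602 to 22837436 reads in the untreated table and 39493929 to 58353167 reads in the 5-aza table. Genes with a value held 55.8% to 62.0% of these totals in untreated libraries and 38.4% to 42.4% in 5-aza libraries, so levels were tested only within a table. The deposited values are FPKM, reads per kilobase of gene length scaled to the library total. Tet3 averaged 7.11 ± 0.279 FPKM in untreated DKO libraries and 11.6 ± 0.312 FPKM in untreated WT libraries (SD, n = 2 each), and Tet2 averaged 2.63 ± 0.120 and 3.25 ± 0.0343 FPKM in the same groups. These gene-level values do not look inside the deleted parts. All 6 matrix and precortex markers (Msx2, Lef1, Hoxc13, Foxn1, Shh and Dlx3) were above 0 in every library, with summed levels of 116 to 212 FPKM. Other cell types were also present: 5 fibroblast markers summed to 390 to 1160 FPKM in untreated libraries and to 58.3 to 121 FPKM in 5-aza libraries, and 8 dermal papilla markers to 115 to 184 FPKM and 13.0 to 47.1 FPKM. In such mixed samples, fewer cells of a type and less RNA per cell cannot be told apart.

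All 10 factors were well covered, with 476 (Grhl3) to 41900 (Cux1) reads per library, and all passed the low-value filter. For 97.6% of untreated genes the deposited length equals the exon lengths of GENCODE M21, each taken as end minus start, added up over every annotated transcript. Ovol1 is an exception, with 2896 bases deposited and 3488 bases of exon union. Most genes with many transcripts are therefore divided by a length larger than their exon union. For Cux1 it is 58791 bases, against 20024 bases of exon union, and for Trps1 37197 against 13380 bases. Comparisons between genes were therefore made on FPKM recomputed with the exon-union length, a scale used in this paragraph only. On that scale untreated DKO libraries held most Hr (38.0 ± 3.36) and Cux1 (35.0 ± 1.40), whose libraries overlapped, followed by Trps1 (23.6 ± 1.70), Grhl1 (22.9 ± 3.20), Gata3 (20.2 ± 0.0466), Sox21 (17.3 ± 1.13), Ovol1 (15.1 ± 1.22), Grhl3 (8.70 ± 0.0611), Vdr (6.95 ± 1.31) and Runx1 (3.90 ± 0.445; SD, n = 2 each). Trps1 and Grhl1 also overlapped there. In untreated WT libraries Hr (40.9 ± 4.63), Trps1 (34.4 ± 6.57) and Cux1 (34.0 ± 2.23) led with overlapping libraries, Gata3 followed at 20.9 ± 0.293, and Ovol1 stood eighth at 9.45 ± 0.322. After 5-aza, Cux1 (40.5 ± 11.9 in DKO and 38.0 ± 10.8 in WT), Hr (40.4 ± 2.91 and 34.8 ± 2.68) and Gata3 (28.3 ± 1.37 and 31.9 ± 0.762) were the 3 highest. Runx1 was lowest in all 4 groups.

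**Figure D1:**
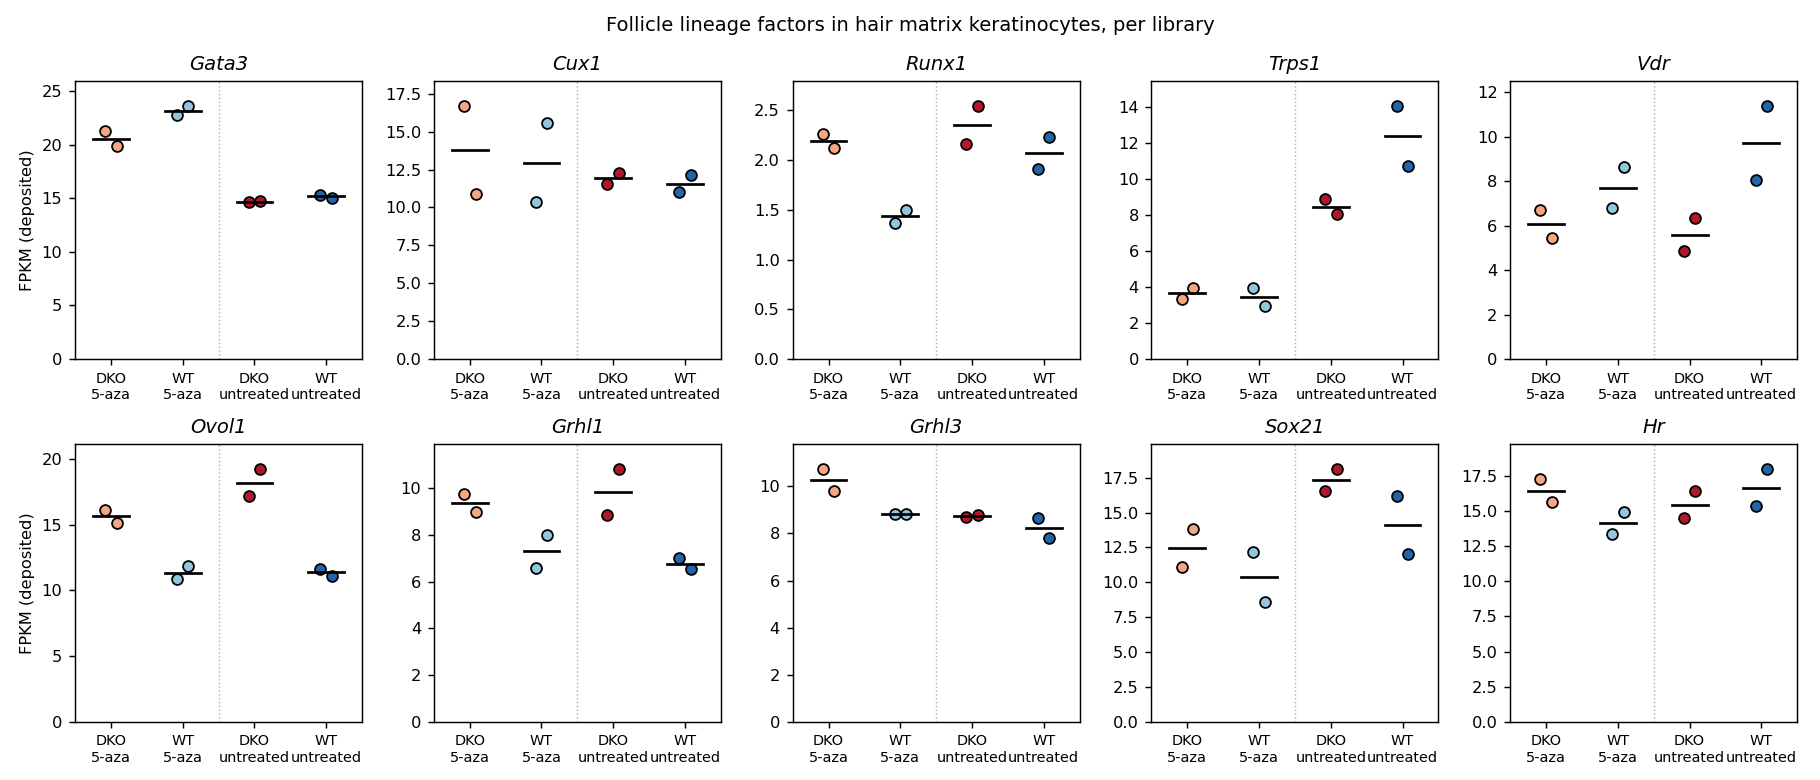
Deposited FPKM (vertical axis, from 0) of each factor in each library (points), with the group mean (line), for DKO and WT after 5-aza and DKO and WT untreated (horizontal axis). Untreated DKO libraries sit above untreated WT libraries for Ovol1 and Grhl1 and below them for Vdr and Trps1, and Trps1 lies between 2.97 and 3.97 FPKM in all 5-aza libraries.

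Promoter sequences are shown for Grhl1, Runx1 and Vdr, the factors that the authors' test called in either comparison and for which RefSeq promoters were found, because the TET enzymes act on cytosines in CG pairs. RefSeq windows on GRCm38.p6, from 250 bases before to 50 bases after a gene start, matched 7 of the 10 factors in 9 windows; Ovol1, Trps1 and Hr were not matched. Each line runs 5′ to 3′ on the strand of the gene, with CG pairs in capitals.
Grhl1, chr12:24572037-24572336, plus strand: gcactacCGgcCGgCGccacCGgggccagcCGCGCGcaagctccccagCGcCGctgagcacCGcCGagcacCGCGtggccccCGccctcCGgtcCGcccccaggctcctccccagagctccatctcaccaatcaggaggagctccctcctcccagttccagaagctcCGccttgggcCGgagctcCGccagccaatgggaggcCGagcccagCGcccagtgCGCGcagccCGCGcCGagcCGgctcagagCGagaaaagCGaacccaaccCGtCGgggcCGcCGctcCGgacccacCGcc
Grhl1, second start, chr12:24580469-24580768, plus strand: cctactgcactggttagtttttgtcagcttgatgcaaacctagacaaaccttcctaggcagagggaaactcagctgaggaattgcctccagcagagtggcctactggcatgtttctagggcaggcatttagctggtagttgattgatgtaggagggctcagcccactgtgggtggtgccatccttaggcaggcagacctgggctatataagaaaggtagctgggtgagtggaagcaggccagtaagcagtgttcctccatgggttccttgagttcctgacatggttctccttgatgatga
Runx1, upstream start, chr16:92826025-92826324, minus strand: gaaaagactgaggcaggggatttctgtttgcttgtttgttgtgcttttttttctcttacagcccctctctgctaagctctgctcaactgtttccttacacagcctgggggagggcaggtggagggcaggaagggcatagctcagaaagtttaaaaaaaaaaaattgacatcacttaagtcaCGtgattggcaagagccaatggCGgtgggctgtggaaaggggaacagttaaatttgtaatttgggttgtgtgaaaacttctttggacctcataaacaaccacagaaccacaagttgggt
Runx1, downstream start, chr16:92697280-92697579, minus strand: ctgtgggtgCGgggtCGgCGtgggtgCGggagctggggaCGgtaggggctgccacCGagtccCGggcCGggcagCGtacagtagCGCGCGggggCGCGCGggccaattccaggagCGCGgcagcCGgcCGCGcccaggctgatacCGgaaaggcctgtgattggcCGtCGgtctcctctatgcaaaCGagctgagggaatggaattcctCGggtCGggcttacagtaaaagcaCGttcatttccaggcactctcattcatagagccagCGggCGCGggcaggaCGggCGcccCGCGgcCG
Vdr, chr15:97908247-97908546, minus strand: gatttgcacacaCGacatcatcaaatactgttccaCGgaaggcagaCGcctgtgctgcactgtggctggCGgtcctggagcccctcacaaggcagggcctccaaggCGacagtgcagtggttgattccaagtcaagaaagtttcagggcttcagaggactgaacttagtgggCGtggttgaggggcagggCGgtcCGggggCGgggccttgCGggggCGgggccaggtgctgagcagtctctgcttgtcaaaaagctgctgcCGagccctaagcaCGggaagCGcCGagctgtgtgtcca

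The starts of 1 gene differed widely in CG content. Grhl1 had 35 CG pairs at its first start and 0 at its second. Runx1 had 2 at its upstream start and 35 at its downstream start. Vdr had 15, and over 32851 promoter windows the median was 7, with quartiles of 3 and 20. The other windows held 22 (Gata3), 25 (Cux1), 12 (Grhl3) and 22 (Sox21) CG pairs. The ratio of observed to expected CG pairs was 0.865 and 1.01 at the CG-rich starts of Grhl1 and Runx1 and 0.546 at that of Vdr, and it was above 0.6 in 35.8% of all windows. The core letters AACCGGTT of grainyhead-like factors (a palindrome, in 0.146% of windows) were found in 0 of the 9 windows, as was AGATAA for GATA factors (11.2%), searched on both strands. TGTGGT, a Runx core, was found on either strand in 2 places of the upstream Runx1 window and 1 place of the Grhl3 window (16.8% of windows). The deposited values are sums over a gene, so they do not show which start was used, and DNA methylation was not analysed here.

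The first comparison asked which of the factors differed between DKO and WT matrix cells without treatment. Ovol1 and Grhl1 were higher and Vdr and Trps1 lower in DKO, each by 1.46-fold to 1.74-fold. These 4 passed the authors' test in the authors' deposited table (DESeq2 adjusted p under 0.05), where 0.793% of genes are listed as higher and 0.486% as lower. With limma on log2(FPKM + 1), 0 of the 10 passed over all 17339 genes tested (0.00577% of genes did). The same 4 factors, 2 higher and 2 lower, had an unadjusted limma p under 0.05, against 6.72% of genes higher and 4.73% lower. The levels of DKO and WT libraries did not overlap for 4 factors above WT (24.1% of genes) and 3 below (19.3% of genes). The median log2 difference of the 10 factors was 0.06, and that of all genes tested 0.01. With 2 libraries against 2, an exact permutation test of a single gene cannot give a two-sided p below 0.333, so no such test was made.

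Ovol1 (ENSMUSG00000024922, chromosome 19, 5549137 to 5560575, GRCm38) had 17.2 and 19.3 FPKM in untreated DKO libraries, against 11.7 and 11.1 FPKM in untreated WT libraries. Both DKO libraries lay well above both WT libraries. Its mean was 1.60-fold higher in DKO, a difference of 0.63 ± 0.10 (SE) in log2(FPKM + 1), with an adjusted p of 0.177 in limma. The difference passed over all genes when limma's voom weights on reads were used (adjusted p = 0.0477) and when all 8 libraries shared 1 limma fit (adjusted p = 0.0428). The adjusted p ranged from 0.0428 to 0.889 over the 14 alternatives. In the authors' deposited table Ovol1 was higher in DKO by 0.65 on the log2 scale, with an adjusted p of 0.00378.

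Grhl1 (ENSMUSG00000020656, chromosome 12, 24572283 to 24617391) had 8.88 and 10.8 FPKM in untreated DKO libraries, against 6.998 and 6.54 FPKM in untreated WT libraries. The groups did not overlap, and DKO replicate 1 was closer to WT than DKO replicate 2. The log2 difference was 0.48 ± 0.12 (limma adjusted p = 0.285), and its unadjusted p was no longer under 0.05 without DKO replicate 2. The authors' deposited table gives 0.51 with an adjusted p of 0.0280. Grhl3 (chromosome 4, 135541888 to 135573630), the family member best known for the epidermal barrier, had 8.70 and 8.79 FPKM in DKO libraries and 8.67 and 7.82 FPKM in WT libraries. Its difference was 0.08, with a 95% interval of -0.16 to 0.32 in limma. Whether Grhl1 and Grhl3 differed from each other in their response was not tested.

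Vdr (ENSMUSG00000022479, chromosome 15, 97854425 to 97910630) had 4.85 and 6.34 FPKM in untreated DKO libraries, against 8.07 and 11.4 FPKM in untreated WT libraries. Every DKO library was below every WT library, and the WT libraries differed more from each other than the DKO libraries did. Its mean was 1.74-fold lower in DKO, a log2 difference of -0.69 ± 0.20 (limma adjusted p = 0.327, 0.119 to 0.877 over the alternatives). The unadjusted p was not under 0.05 without DKO replicate 1. In the authors' deposited table the log2 difference was -0.82, with an adjusted p of 0.000802. Hr (chromosome 14, 70552212 to 70573548), whose product binds the Vdr protein, had 14.5 and 16.4 FPKM in DKO libraries and 15.3 and 18.0 FPKM in WT libraries. These overlapped, and the log2 difference was -0.10 with a 95% interval of -0.43 to 0.23.

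Trps1 (ENSMUSG00000038679, chromosome 15, 50654752 to 50890463) had 8.91 and 8.05 FPKM in untreated DKO libraries, against 14.1 and 10.7 FPKM in untreated WT libraries. The groups did not overlap, and the mean was 1.46-fold lower in DKO. The log2 difference was -0.49 ± 0.15 (limma adjusted p = 0.358), and the unadjusted p was not under 0.05 when DKO replicate 1 or DKO replicate 2 was left out. Without WT replicate 1 the difference was -0.31. The authors' deposited table lists -0.58 with an adjusted p of 0.0133. Dermal papilla markers moved alongside Trps1 and Vdr: the 8 markers summed to 117 and 115 FPKM in DKO libraries and to 184 and 156 FPKM in WT libraries. None of the 8 was at 0. At an unadjusted limma p under 0.05, 6 of the 8 were lower (4.73% of all genes) and 0 higher (6.72%). The authors' test called 6 as lower (0.486% of genes). The part of these markers in the Trps1 and Vdr differences was not tested. Fibroblast markers, which summed to 1160 and 975 FPKM in DKO libraries and to 390 and 1077 FPKM in WT libraries, overlapped between the groups.

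The inner root sheath factors differed little in untreated cells. Gata3 (ENSMUSG00000015619, chromosome 2, 9857078 to 9890034) had 14.7 and 14.7 FPKM in DKO libraries and 15.4 and 15.1 FPKM in WT libraries. Although the groups did not overlap, the log2 difference was only -0.05, with a 95% interval of -0.28 to 0.19. Cux1 (chromosome 5, 136248135 to 136567490) had 11.6 and 12.3 FPKM in DKO libraries and 11.0 and 12.1 FPKM in WT libraries, a difference of 0.04 with an interval of -0.21 to 0.29. Runx1 (chromosome 16, 92601466 to 92826149) had 2.16 and 2.54 FPKM in DKO libraries and 1.91 and 2.23 FPKM in WT libraries, which overlapped. Sox21 (chromosome 14, 118233232 to 118237030), the cuticle factor, had 16.5 and 18.1 FPKM in DKO libraries and 16.2 and 12.0 FPKM in WT libraries. Its difference of 0.29 had an interval of -0.13 to 0.72, and WT replicate 1 was close to both DKO libraries. It was 0.49 without WT replicate 1, with an unadjusted limma p under 0.05, and 0.091 without WT replicate 2. T cells and other immune cells also use Gata3 and Runx1. All 8 of their markers summed to 5.91 and 7.62 FPKM in DKO libraries and to 1.53 and 2.59 FPKM in WT libraries. Only 3 of the 8 passed the low-value filter, and Cd2 was at 0 in both WT libraries and Cd3d in 1. Of the 3 tested, 2 were higher in DKO at an unadjusted limma p under 0.05 (6.72% of all genes) and 0 lower (4.73%). In the authors' test Cd74 was the 1 marker past an adjusted p of 0.05, higher in DKO, as were 0.793% of genes. Cd74 held most of the reads, with an authors' mean of 330 normalized reads, against 29.5 for Ptprc. The T cell genes Cd3e, Cd3g and Cd3d had 12.3, 7.18 and 3.75, so these sums say little about T cells. The part of immune cells in the levels of Gata3 and Runx1 was not tested.

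**Figure D2:**
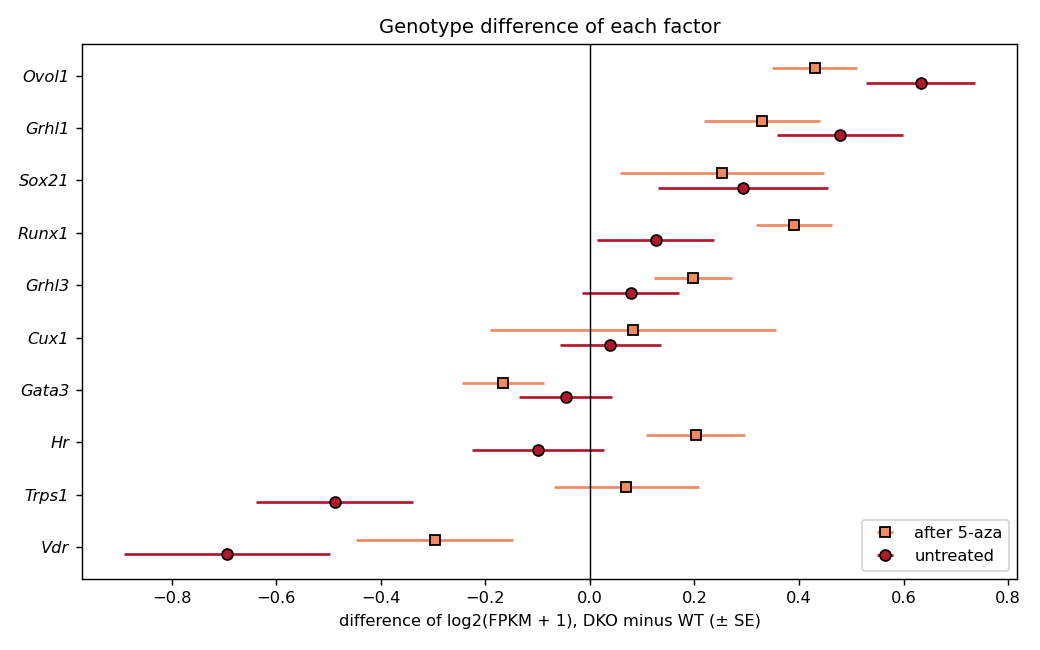
Difference of log2(FPKM + 1), DKO minus WT, with its standard error from limma (horizontal axis), for each factor (vertical axis), after 5-aza (squares) and untreated (circles). Ovol1 and Grhl1 are positive and Vdr negative in both comparisons, and Trps1 is at -0.49 untreated and at 0.07 after 5-aza.

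The second comparison asked the same question after 5-aza. Ovol1, Runx1 and Grhl1 were 1.38-fold, 1.53-fold and 1.29-fold higher in DKO and had an unadjusted limma p under 0.05, as had 6.64% of genes in that direction, and 0 of the 10 were lower at that level (2.30% of genes). Over all genes 0 of 16856 passed in limma (0.0%), and 1120 genes were higher and 387 lower at an unadjusted p under 0.05. With scaling to the reads in listed genes these were 739 and 699, and 2 factors were higher (Ovol1 and Runx1) and 1 lower (Gata3). In the authors' deposited table Runx1 was the 1 factor past an adjusted p of 0.05, where 0.547% of genes were higher and 0.161% lower. Libraries of DKO and WT did not overlap for 5 factors above WT (28.0% of genes) and 2 below (11.6% of genes). The median difference of the 10 factors was 0.20, against 0.03 for all genes.

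Runx1 had 2.26 and 2.12 FPKM in DKO libraries after 5-aza, against 1.37 and 1.503 FPKM in WT libraries after 5-aza. Both DKO libraries lay above both WT libraries with little spread within each group. The log2 difference was 0.39 ± 0.07 (limma adjusted p = 0.358), and the authors' deposited table gives 0.54 with an adjusted p of 0.0159. The 8 immune markers summed to 0.637 and 1.07 FPKM in DKO libraries and 0.916 and 0.503 FPKM in WT libraries after 5-aza. The 5 basal and outer root sheath markers summed to 630 and 745 FPKM in the same DKO libraries and 434 and 347 FPKM in the WT libraries. All 5 were higher at an unadjusted limma p under 0.05 (6.64% of all genes), and their part in the Runx1 difference was not tested. Ovol1 had 16.1 and 15.1 FPKM in DKO libraries and 10.9 and 11.9 FPKM in WT libraries after 5-aza, again without overlap, a difference of 0.43 ± 0.08 (limma adjusted p = 0.363). Grhl1 had 9.77 and 9.01 FPKM in DKO libraries and 6.58 and 8.02 FPKM in WT libraries after 5-aza, a difference of 0.33 ± 0.11 (limma adjusted p = 0.527), and the unadjusted p was not under 0.05 without DKO replicate 1, without DKO replicate 2, without WT replicate 1, with either other scaling or with the replicate number as a block. Ovol1 and Runx1 kept an unadjusted p under 0.05 under all 15 alternatives.

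The other 7 factors did not reach an unadjusted p under 0.05 after 5-aza in the main limma fit. Grhl3 did so with no filter, without the variance trend, in the joint fit of all 8 libraries and with exon-union length. In the authors' test the unadjusted p was 0.0229 for Vdr and 0.0278 for Gata3, both lower in DKO. Their adjusted p there was 0.889 and 0.991. Vdr had 6.72 and 5.44 FPKM in DKO libraries and 6.77 and 8.65 FPKM in WT libraries, so that DKO replicate 1 and WT replicate 1 nearly met, and its difference of -0.30 had a 95% interval of -0.70 to 0.11. Trps1 had 3.35 and 3.97 FPKM in DKO libraries and 3.95 and 2.97 FPKM in WT libraries, which overlapped (difference 0.07, interval -0.30 to 0.44). Gata3 had 21.3 and 19.9 FPKM in DKO libraries and 22.8 and 23.6 FPKM in WT libraries, without overlap (difference -0.17, interval -0.38 to 0.04). Hr had 17.3 and 15.6 FPKM in DKO libraries and 13.4 and 14.96 FPKM in WT libraries, also without overlap, and stood higher in DKO (difference 0.20, interval -0.05 to 0.46). Grhl3 was at 10.7 and 9.79 FPKM in DKO libraries and at 8.83 and 8.81 FPKM in WT libraries (difference 0.20, interval -0.0040 to 0.40), and Sox21 at 11.1 and 13.8 FPKM and at 12.2 and 8.55 FPKM, with overlap. Cux1 differed within each genotype more than between them: it had 16.7 FPKM in DKO replicate 1 and 15.6 FPKM in WT replicate 2, against 10.9 FPKM in DKO replicate 2 and 10.3 FPKM in WT replicate 1. Melanocyte markers divided the same libraries, with 26.6 and 19.7 FPKM where Cux1 was high and 134 and 93.3 FPKM where it was low (6 of 6 markers above 0 in each). Hair shaft (23.3 and 17.9 against 71.1 and 40.1 FPKM), dermal papilla (13.0 and 20.1 against 30.4 and 47.1 FPKM) and fibroblast markers (87.1 and 58.3 against 121 and 120 FPKM) divided them in the same way, and Trps1 and Sox21 were also lower in the libraries where Cux1 was high. The part of these cell types in the levels of the 3 factors was not tested.

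The difference between the genotype effects with and without 5-aza was tested over all 8 libraries, in which a scaling of 1 table that acts on both genotypes alike largely cancels. Of 18505 genes 5 passed in limma (0.0270%), and 0 of the 10 factors did. Trps1 had the smallest p of the factors: its DKO minus WT difference was 0.07 after 5-aza and -0.49 without, which differed by 0.56 ± 0.23 (limma unadjusted p = 0.0460, adjusted p = 0.811). At an unadjusted p under 0.05 it was the 1 factor that was higher, against 3.05% of genes, and 0 were lower (3.04%). It was not under 0.05 with either other scaling, with a pseudocount of 0.1 FPKM, without the filter or without the variance trend. It was also lost without either untreated DKO library, without untreated WT replicate 1, without 5-aza DKO replicate 2 or without 5-aza WT replicate 2. The same contrast was 0.26 ± 0.13 for Runx1 (adjusted p = 0.858), -0.20 ± 0.12 for Ovol1 (adjusted p = 0.907), 0.40 ± 0.28 for Vdr (adjusted p = 0.928) and 0.30 ± 0.16 for Hr (adjusted p = 0.884, limma). None of these effects was therefore shown to differ between treated and untreated mice.

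Levels after 5-aza were set beside untreated levels without a test. Listed genes held a different share of the reads in each table, and treatment and table cannot be told apart. Gata3 averaged 20.6 ± 1.00 FPKM in 5-aza DKO libraries and 14.7 ± 0.0339 FPKM in untreated DKO libraries, and 23.2 ± 0.554 and 15.2 ± 0.213 FPKM in the matching WT groups (SD, n = 2 each). The ratio of 5-aza to untreated levels was 1.40 in DKO and 1.53 in WT, where the median gene had 0.656 and 0.640. For Gata3, 93.4% and 94.5% of genes had a ratio at or below its own. The same shares were 89.3% and 88.1% for Cux1, 89.7% and 86.5% for Grhl3 and 81.8% and 86.8% for Grhl1. They were 86.7% and 74.9% for Hr, 75.2% and 84.0% for Ovol1 and 87.5% and 69.8% for Vdr. Runx1 (80.7% and 57.8%) and Sox21 (59.3% and 63.3%) were also above the median gene, so this was not particular to Gata3. Trps1 averaged 3.66 ± 0.438 FPKM in 5-aza DKO libraries and 8.48 ± 0.613 FPKM in untreated DKO libraries, and 3.46 ± 0.687 and 12.4 ± 2.36 FPKM in the WT groups. Its ratios of 0.432 and 0.279 were the lowest of the 10 factors, and 22.6% and 15.3% of genes had a ratio as low. Scaled to the reads in genes of both tables, the median gene had ratios of 0.973 in DKO and 0.984 in WT, Gata3 had 2.08 and 2.34, and Trps1 had 0.642 and 0.425. On this scale Trps1 was the 1 factor whose mean was lower in 5-aza libraries in both genotypes. The marker sums that follow are deposited FPKM, not rescaled, where the median gene had the ratios of 0.656 and 0.640 given above. Dermal papilla markers moved with Trps1, at 13.0 to 47.1 FPKM summed in 5-aza libraries and 115 to 184 FPKM in untreated libraries. Fibroblast markers did so too, and the part of either group in the Trps1 level was not tested. The 5 markers of differentiated interfollicular epidermis summed to 2.91 to 11.3 FPKM in 5-aza libraries and 108 to 293 FPKM in untreated libraries, with Flg at 0 in 1 5-aza library. The 6 matrix markers summed to 172 to 212 FPKM in 5-aza libraries and 116 to 181 FPKM in untreated libraries. Inner root sheath markers summed to 337 and 351 FPKM in 5-aza WT libraries and 218 and 164 FPKM in untreated WT libraries, and to 257 and 345 FPKM in 5-aza DKO libraries and 307 and 451 FPKM in untreated DKO libraries. None of these sums was rescaled. The dermal papilla, fibroblast and interfollicular sums were lower after 5-aza by more than the median gene in both genotypes. The inner root sheath sums of DKO libraries overlapped between 5-aza and untreated, and their lower mean after 5-aza need not be a fall relative to the median gene. The part of these markers in the Gata3 level was not tested.

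**Figure D3:**
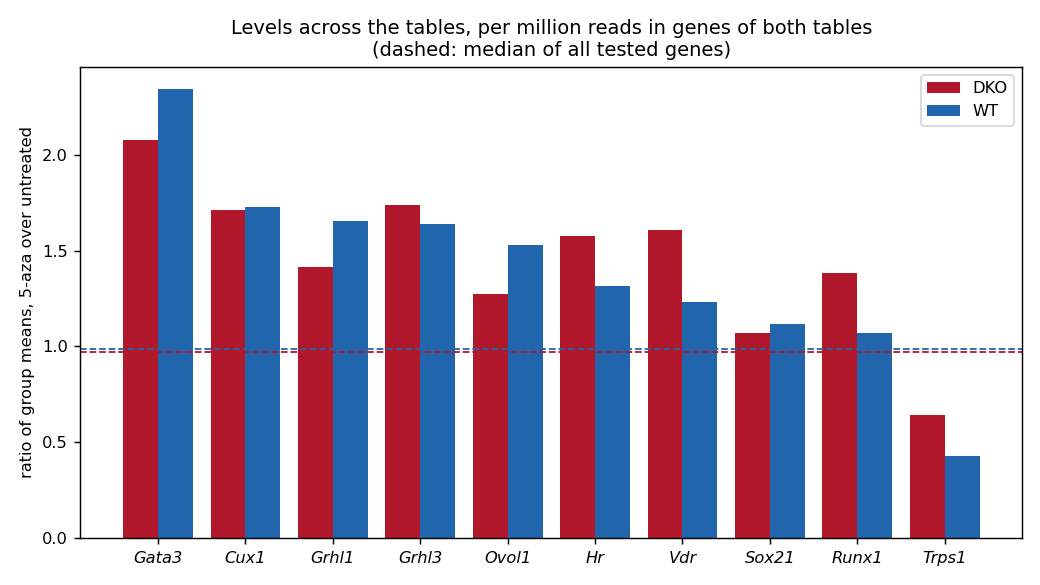
Ratio of the group means, 5-aza over untreated, for each factor (horizontal axis) in DKO and WT, after scaling to the reads in genes listed in both tables (vertical axis, from 0); dashed lines give the median of all tested genes. Gata3 is highest at 2.08 and 2.34, and Trps1 is lowest at 0.642 and 0.425.

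Genes around the factors were described from 3 lists. Of 17 family members and partners, 14 were tested without treatment. At an unadjusted limma p under 0.05, 0 were higher (6.72% of all genes) and 2 lower (4.73%) in DKO, and 0 passed over all genes. Their median difference was -0.02. The 2 were Runx3 and Cbfb, which encodes the shared partner of Runx factors. Runx3, a relative of Runx1, had 5.62 and 4.44 FPKM in untreated DKO libraries and 10.9 and 8.36 FPKM in untreated WT libraries, a difference of -0.82 ± 0.17 (limma adjusted p = 0.227), and in the authors' deposited table it was -0.97 with an adjusted p of 4.1e-05. Cbfb had 5.99 and 5.77 FPKM in DKO libraries and 7.41 and 6.86 FPKM in WT libraries (limma adjusted p = 0.423). The retinoid receptors Rxra and Rxrb, partners of Vdr, were tested and did not pass. After 5-aza, 13 were tested, and 0 were higher or lower at an unadjusted p under 0.05. Runx3 was then at 0.943 and 2.90 FPKM in DKO libraries and at 3.62 and 1.25 FPKM in WT libraries, which overlapped.

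Of 13 genes reported as targets, 11 were tested without treatment, with 0 higher and 0 lower at an unadjusted limma p under 0.05 and a median of 0.22 against 0.01 for all genes. Cyp24a1, the vitamin D hydroxylase that Vdr induces, was under the filter within each table, with at most 0.159 FPKM in any library. After 5-aza 12 were tested and 2 were higher, Dsg1b and Myc (6.64% of all genes), with 0 lower (2.30%), a median of 0.15 and 0 past the threshold over all genes. Dsg1b, a desmosomal cadherin of the Dsg1 group linked to Grhl1, had 3.47 and 3.44 FPKM in DKO libraries and 1.63 and 2.17 FPKM in WT libraries, a difference of 0.63 ± 0.11 (limma adjusted p = 0.348). The authors' deposited table gives 0.80 with an adjusted p of 0.0434. Myc, which Ovol1 represses in mouse epidermis, had 3.04 and 2.61 FPKM in DKO libraries and 1.75 and 1.94 FPKM in WT libraries (limma adjusted p = 0.393). Id2, another gene linked to Ovol1, was the 1 target with an unadjusted p under 0.05 in the test of the 2 effects, at 0.55 ± 0.22 (limma adjusted p = 0.809).

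Of 11 structural genes of the inner root sheath, 5 were higher and 3 lower in untreated DKO at an unadjusted limma p under 0.05. So were 6.72% and 4.73% of all genes, and 1, Krt28, passed over all genes in limma. The authors' test called 4 as higher (Krt27, Krt73, Tchh and Tgm3, 0.793% of genes) and 2 as lower (Krt25 and Krt28, 0.486%). Krt28 had 1.98 and 2.85 FPKM in DKO libraries against 70.4 and 70.7 FPKM in WT libraries. Krt25 had 22.3 and 36.0 FPKM in DKO libraries and 65.1 and 63.0 FPKM in WT libraries. Krt27 had 57.6 and 86.0 FPKM in DKO libraries and 23.8 and 14.4 FPKM in WT libraries, and Krt73 had 65.4 and 77.8 FPKM and 33.6 and 23.4 FPKM. After 5-aza, at an unadjusted limma p under 0.05, 2 were higher (Krt26 and Tgm3, 6.64% of all genes) and 1 lower (Krt28, 2.30%). The authors' test then called Krt26 as higher (0.547% of genes) and Krt28 as lower (0.161%). The list's median was -0.30 against 0.27 without treatment. Hair shaft keratin markers moved alongside Ovol1 and Grhl1 in untreated mice: 7 of 8 were in the table, with Krt85 not listed. All 7 were higher at an unadjusted limma p under 0.05 (6.72% of all genes). They summed to 169 and 244 FPKM in DKO libraries and to 17.6 and 28.8 FPKM in WT libraries. After 5-aza they summed to 23.3 and 71.1 FPKM in DKO libraries and to 40.1 and 17.9 FPKM in WT libraries. For Ovol1 and Grhl1, DKO libraries lay above WT libraries without overlap after 5-aza, as they did for 28.0% of genes. Of 5 basal and outer root sheath markers, 2 without treatment (6.72% of all genes) and 5 after 5-aza (6.64%) were higher at an unadjusted limma p under 0.05. Their sums were 849 and 956 FPKM in untreated DKO libraries and 473 and 570 FPKM in untreated WT libraries. After 5-aza they were 630 and 745 FPKM in DKO libraries and 434 and 347 FPKM in WT libraries. The part of either marker group in the differences of Ovol1 and Grhl1 was not tested.

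**Figure D4:**
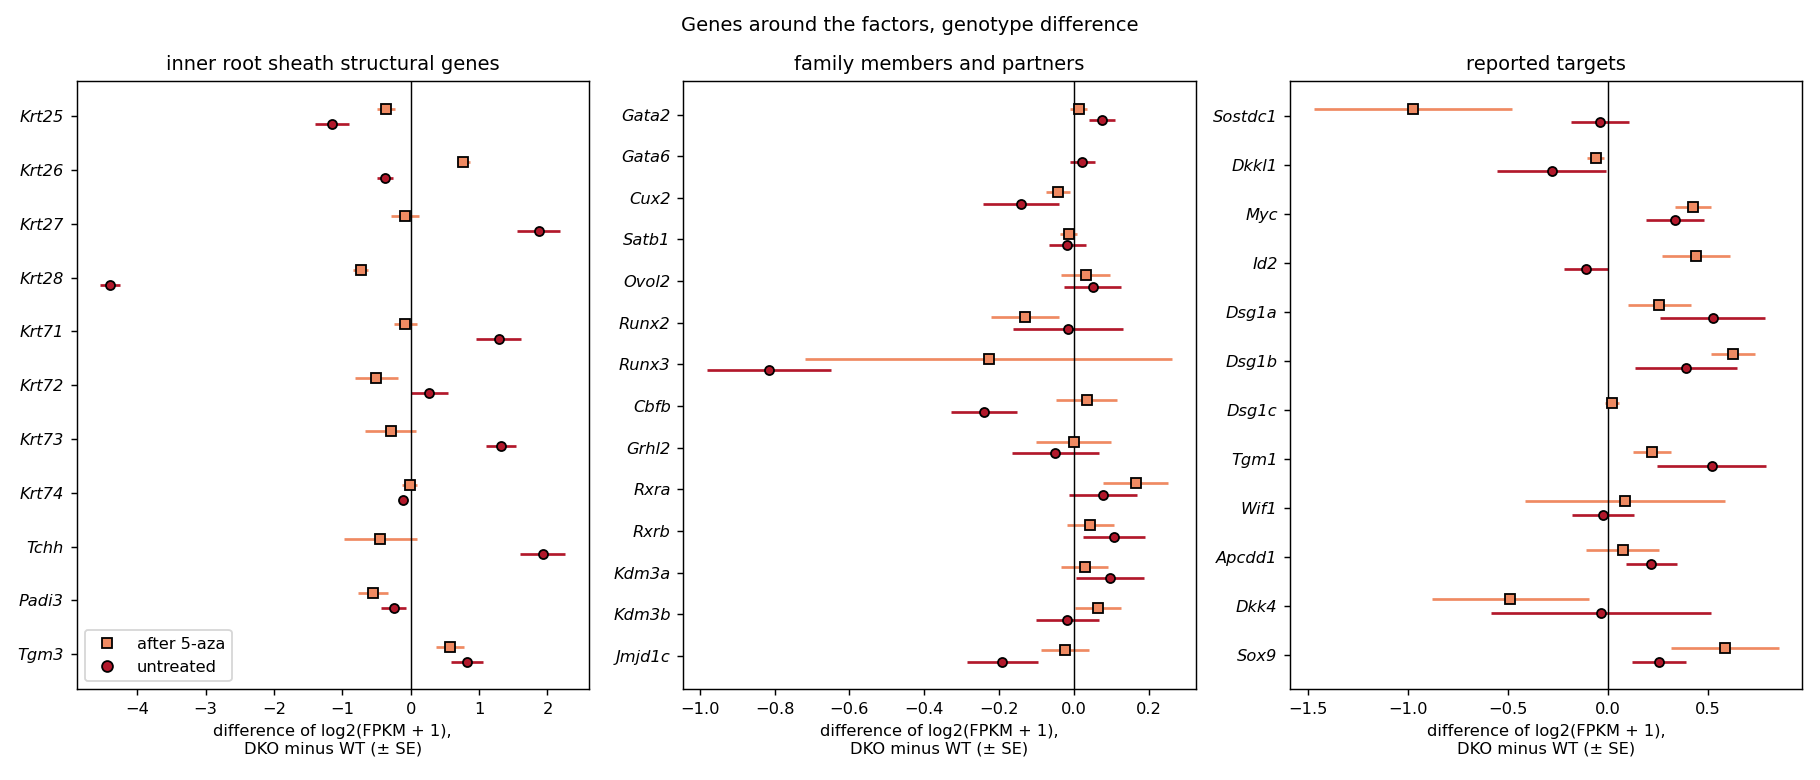
Difference of log2(FPKM + 1), DKO minus WT, with its standard error from limma (horizontal axis), for the tested genes of 3 lists (panels), after 5-aza (squares) and untreated (circles). Krt28 lies at -4.40 untreated and -0.73 after 5-aza, and most family members and partners lie near 0, apart from Runx3 at -0.82 untreated.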

How the data were processed

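RNA of 8 libraries was analysed from 2 deposited tables, 1 per genotype comparison. Per the submitters' processing notes the authors used Trim Galore, STAR, HTSeq and DESeq2 with GRCm38 and mm10; the strand setting and versions are not given in the sources used here. Per the labels' protocols all libraries used an mRNA kit, whereas the series' design text names a stranded kit with ribosomal RNA depletion; which was used cannot be told. The deposited library columns hold FPKM, a unit inferred from whole reads (value times length); 376 gene identifiers of the 5-aza table have no name or FPKM and were left out. The deposited log2 fold changes have WT in the numerator, as the library columns show, so their sign was turned here. The deposited p-value columns come from DESeq2 as run by the authors, the deposited statistic is a score, the deposited mean is a signal of normalized reads, and the deposited length is in bases. Values within 1 gene do not depend on that length, except through the pseudocount.

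Here log2(FPKM + 1) was fitted in R 4.3.3 by limma 3.58.1 using its mean-variance trend, two-sided, with Benjamini-Hochberg adjustment over all genes and a threshold of 0.05. A gene was tested if 2 or more libraries held 10 or more reads, scaled to the median depth, and all libraries together 15 or more. A count model had been planned only if the columns were counts. The 5-aza levels were not tested against untreated ones. Members and lists were chosen with earlier results of these data known. Genes of the lists are named by rule: those past the threshold over all genes, and per direction up to 2 with the smallest unadjusted p under 0.05. Genes named outside it (Cyp24a1, Rxra, Rxrb) were chosen after their values were seen. Fits were tested on simulated data. Exons of Ovol1, Sox21, Gata3, Cux1 and Runx1 overlap antisense genes. Those with values held at most 35 reads in any library, 1 that overlaps Ovol1 was not analysed here, and strand use in the counting is not stated. Alternatives were the pseudocount, filters, trend, voom, scalings, a joint fit, the replicate number as a block, each library left out, and, chosen after seeing the data, exon-union length and crossed pairs.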

Additional observations from a re-analysis of the deposited data

Results flagged for a closer look

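Among the sheath genes around the factors, Krt28 stood out because its genotype difference depended on 5-aza: the difference after 5-aza exceeded that without by 3.67 ± 0.20 on the log2 scale (limma adjusted p = 0.00787), with -0.73 after 5-aza and -4.40 without, and DKO libraries below WT libraries in both tables. Krt26 stood out because DKO libraries lay above WT libraries after 5-aza (1.27 and 1.55 against 0.499 and 0.335 FPKM) and below them without treatment (0.118 and 0.376 against 0.536 and 0.688 FPKM). The difference between its effects, 1.15 ± 0.18, did not pass over all genes (limma adjusted p = 0.275). None of the 10 factors met these criteria. Groups of 2 libraries are too small for the test of single outlying libraries.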

How the results depend on the processing

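Of the factors' differences in the 3 comparisons, only Ovol1 without treatment crossed the threshold under any alternative, namely voom weights and the joint fit of all 8 libraries. In limma the number of untreated genes called was 1, against 8 with a pseudocount of 0.1 FPKM, 0 with no filter, 0 if filtered at 0.1 FPKM, 0 without the variance trend, 147 with voom, 129 with all 8 libraries in 1 fit, 37 with exon-union length and 0 to 1 with each library left out. The number after 5-aza was 0, against 1 with all 8 libraries in 1 fit and 91 with crossed pairs (57 higher and 34 lower). With crossed pairs, 6 factors were higher and 1 lower at an unadjusted limma p under 0.05. So were 2091 and 999 of the 16856 genes tested, and this pairing was chosen after seeing the data. The number of interaction calls was 5, against 1 with the pseudocount of 0.1 FPKM, 2 without a filter, 2 with the filter of 0.1 FPKM, 2 without the trend, 1 with voom, 2 with either scaling, and 0 to 8 with each library left out. The replicate numbers are not stated to pair libraries; same-numbered libraries deviated together with a correlation of 0.0317 without treatment and -0.589 after 5-aza. With a replicate block in the fit, 13 untreated genes, 0 genes after 5-aza and 2 interaction genes passed, and none of the 10 factors did. Signs changed only for small differences. With scaling to reads in listed genes Cux1 was -0.0019 after 5-aza and -0.0064 in the interaction. With each library left out, Cux1 ranged from -0.023 to 0.10 untreated, -0.20 to 0.37 after 5-aza and -0.24 to 0.33 in the interaction, Hr from -0.21 to 0.010 untreated, Trps1 from -0.088 to 0.23 after 5-aza, and Sox21 from -0.27 to 0.19 in the interaction. The causes were not tested. Where a library was left out, the lone library was assumed to vary like the other group. Each factor had at least 476 reads in every library.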
